A study of Mus musculus with 10 samples.

Results

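Cxcl12 and Cxcl16 are chemokine ligands, Cxcr4 and Ackr3 (Cxcr7 in older annotation) are the receptors of the first and Cxcr6 is the receptor of the second. These 5 genes were taken by their platform gene symbols from the 19938 genes measured in mouse pancreas, and each had 1 transcript cluster (the set of probes summarised into 1 value) that carried its symbol alone. They were picked with the difference between the groups already known, so their differences are given below as a description, with no p-value. The RNA came from 10 samples hybridised to Affymetrix Mouse Gene 1.0 ST arrays, 5 control and 5 DKO, all of mixed strain background. The DKO group carried PDX1Cre, Mst1-/- and Mst2L/L and so lacked the Hippo kinases MST1 and MST2. The Mst1 allele was null in all cells, whereas Mst2 was floxed and lost only where the Pdx1 promoter, a promoter of pancreatic progenitors, had driven Cre, so that stromal, vascular and immune cells of the tissue would lack MST1 alone. The control genotype is given only as Control, and neither age nor sex is given. Nothing in the labels ties each sample to its own animal, and errors and p-values thus cover the spread of these 10 samples, which may in part be technical.

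Chemokines are small secreted or membrane-held proteins that guide cells along concentration gradients through G protein-coupled receptors. CXCL12 is made mainly by stromal and endothelial cells, is held on heparan sulfate and signals through CXCR4, while ACKR3 binds and internalises it without coupling to G proteins in the usual way. CXCL16 is made as a membrane protein with a chemokine domain on a stalk, is shed by the protease ADAM10, and attracts T, NKT and innate lymphoid cells that carry CXCR6.

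The whole-series facts that bear on these genes are few. The arrays shared a common log2 scale, with medians of 7.12 to 7.15. Acinar markers averaged 11.5 to 12.3 and islet markers 10.3 to 10.7 on every array. Stk4, the gene of MST1, lay between 5.01 and 5.23 on every array (difference -0.02), within the range that sex-linked genes gave on arrays of the sex without them (3.99 to 5.75), so it gave no check of the labels, and no cluster carried the symbol of Stk3, the gene of MST2, alone. Xist was high on 3 control and 2 DKO arrays. Genes of the Y chromosome were low on these arrays and high on the others, so each group held samples of both sexes and hence of different animals. Over all genes 487 passed limma at an adjusted p of 0.05 (Benjamini-Hochberg), 414 of them higher in DKO and 73 lower. At an unadjusted limma p of 0.05 there were 2958 of 19938, the share to set beside the unadjusted counts below.

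The promoters of Cxcl12, the member with the largest difference, and of Cxcr4, its signalling receptor, are shown because the pair share a CpG-rich start region while the groups separated for the first transcript and overlapped for the second. Both are RefSeq sequences of GRCm38.p6, 250 bases before to 50 after the gene's start, read on the gene's strand. Cxcl12 lies at chr6:117168285-117168584 on the plus strand and Cxcr4 at chr1:128592250-128592549 on the minus strand. Capitals mark the GC box GGGCGG and the TATA box TATAAA on either strand, a pair of motifs chosen after the sequences were seen.
Cxcl12: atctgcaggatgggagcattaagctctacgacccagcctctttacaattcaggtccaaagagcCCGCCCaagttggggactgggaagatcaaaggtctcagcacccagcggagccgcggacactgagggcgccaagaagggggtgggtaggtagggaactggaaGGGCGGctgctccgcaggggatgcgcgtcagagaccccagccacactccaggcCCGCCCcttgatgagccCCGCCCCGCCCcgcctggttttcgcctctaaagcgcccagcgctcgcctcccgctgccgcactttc
Cxcr4: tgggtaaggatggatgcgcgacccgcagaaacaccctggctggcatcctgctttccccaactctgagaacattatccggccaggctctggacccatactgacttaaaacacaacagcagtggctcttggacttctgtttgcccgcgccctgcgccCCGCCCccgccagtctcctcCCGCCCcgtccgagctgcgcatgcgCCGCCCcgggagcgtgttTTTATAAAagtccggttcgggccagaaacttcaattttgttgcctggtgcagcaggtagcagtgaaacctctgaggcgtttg
Each of the 2 windows held 20 CpG dinucleotides, against a median of 7 over 32851 RefSeq promoters. Of all promoters 73.5% held fewer, so a count this high is common. Cxcl12 held 5 GC boxes, 2 of which share 1 base, and no TATA box. Cxcr4 held 3 GC boxes and a TATA box that starts 30 bases before the gene's start, with an overlapping match on the other strand. The GC box was found in 35.7% and the TATA box in 13.6% of all promoters. The windows of Cxcl12, Cxcr4, Ackr3 and Cxcr6 held none of 4 other motifs searched on both strands, which were GGAATG of the TEAD factors (in 14.7% of all promoters), TGANTCA of AP-1 (7.81%), the NF-kB motif of 10 letters (0.411%) and ACGTG of the hypoxia element (19.6%). No match says only that these letters are not in the window. The Ackr3 window held 8 CpG dinucleotides and that of Cxcr6 held 3. The Cxcl16 promoter was not analysed here.

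The first comparison asked how the ligand Cxcl12 stood in DKO against control pancreas. Its log2 level was 8.45, 8.58, 8.90, 8.78 and 8.68 on control arrays 1 to 5, and 10.47, 10.03, 10.20, 9.85 and 10.11 on DKO arrays 1 to 5. Every DKO array lay above every control array, with a gap of 0.95 between the highest control and the lowest DKO value. The group means were 8.68 ± 0.17 and 10.13 ± 0.23 (SD, n = 5 each), a difference of 1.45 ± 0.12 (SE) or 2.74-fold, the 26th largest increase among the 19938 genes. DKO replicate 1 held the highest value, and this array also carried hepatocyte transcripts, with a mean of 9 hepatocyte markers of 11.8 against 6.75 to 7.99 on the other 9 arrays. Without it the Cxcl12 difference was 1.37.

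For both receptors of CXCL12 the groups overlapped. Cxcr4 measured 7.65, 7.46, 7.86, 8.05 and 7.45 on control arrays 1 to 5, and 7.57, 7.47, 7.27, 7.28 and 7.29 on DKO arrays 1 to 5. DKO replicates 3, 4 and 5 lay below every control array, whereas DKO replicates 1 and 2 lay inside the control range. The means were 7.69 ± 0.26 in control and 7.38 ± 0.14 in DKO (SD, n = 5 each), a difference of -0.32 ± 0.12 (SE), and the control arrays were the more scattered group. Ackr3, the scavenging receptor, measured 7.23, 6.83, 6.97, 6.77 and 7.05 on control arrays 1 to 5 and 6.64, 6.72, 6.94, 6.90 and 6.99 on DKO arrays 1 to 5. Only DKO replicates 1 and 2 lay below the control range. The means were 6.97 ± 0.18 and 6.84 ± 0.15 (SD, n = 5 each), with a difference of -0.13 ± 0.10 (SE) that is little larger than its error.

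The second ligand, Cxcl16, was higher in DKO as well. It measured 7.31, 7.34, 6.96, 7.20 and 7.35 on control arrays 1 to 5, and 8.47, 8.47, 7.89, 8.12 and 8.25 on DKO arrays 1 to 5. The groups did not overlap, and the lowest DKO array stood 0.54 above the highest control array. The means were 7.23 ± 0.16 in control and 8.24 ± 0.25 in DKO (SD, n = 5 each), a difference of 1.01 ± 0.12 (SE) or 2.01-fold, the 68th largest increase. DKO replicates 1 and 2, the highest for Cxcl16, also had the highest means of the B cell and lymph node markers (6.56 and 6.54, against 5.81 to 5.94 in the other DKO arrays). Control replicate 4 had the highest such mean in its group (6.42). The part of lymphocyte-rich tissue in the Cxcl16 difference was not tested. Without these 3 arrays the Cxcl16 difference was 0.85 and that of Cxcl12 1.40, and without DKO replicate 1 alone the Cxcl16 difference was 0.95. As DKO replicates 1 and 2 held the highest Cxcl16 values, leaving them out lowers the Cxcl16 difference whatever their tissue content.

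Cxcr6, the receptor of CXCL16 on lymphocytes, stayed at the dim end of the scale. It measured 5.48, 5.47, 5.37, 5.64 and 5.72 on control arrays 1 to 5, and 5.68, 5.87, 5.60, 5.71 and 5.48 on DKO arrays 1 to 5. All values but that of DKO replicate 2 lay within the range of unexpressed sex-linked genes, so a level above background was not shown on the other 9 arrays. The groups overlapped, with means of 5.54 ± 0.14 and 5.67 ± 0.14 (SD, n = 5 each) and a difference of 0.13 ± 0.09 (SE). A change in so dim a transcript may not be detectable on these arrays.

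**Figure D1:**
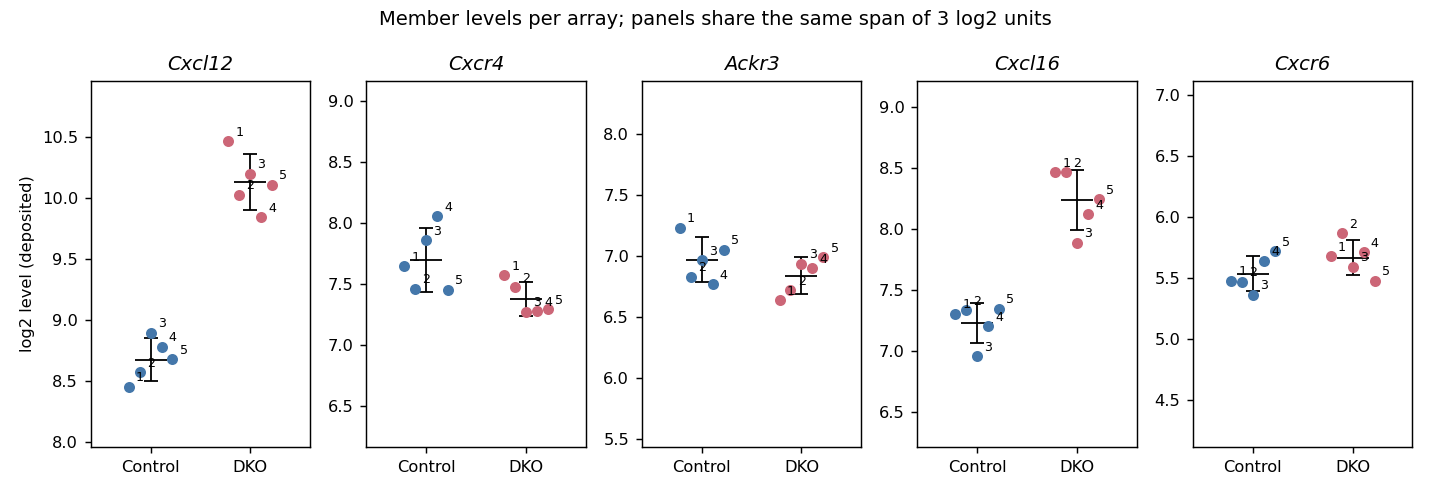
Log2 level of each of the 5 genes on each array (points, numbered by replicate), with group mean and SD (bars), for control (blue) and DKO (red). Cxcl12 and Cxcl16 separate the groups, by gaps of 0.95 and 0.54, while the 3 receptors overlap. Each panel spans the same number of log2 units, but levels of different genes cannot be set against each other.

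In the fit over all genes 2 of the 5, Cxcl12 and Cxcl16, passed the threshold, both higher, where 2.44% of all genes passed in either direction and 2.08% passed as higher. The groups did not overlap in the same 2 genes, against 4.8% of all genes. These counts come from the contrast by which the genes were picked and support nothing by themselves. Within the arrays of high Xist (3 control, 2 DKO) the Cxcl12 difference was 1.41 and the Cxcl16 difference 1.13, and within those of low Xist (2 control, 3 DKO) they were 1.55 and 0.87, with no overlap in either. The Cxcr4 difference was -0.37 and -0.20, that of Ackr3 -0.09 and -0.26, and that of Cxcr6 0.20 and 0.05, in the same order. The groups did not overlap for Ackr3 in the low-Xist arrays and for Cxcr6 in the high-Xist arrays. Groups of 3 and 2 arrays separate easily, and the share of all genes that did so in these splits was not computed. The non-overlaps within the splits, those of the ligands included, thus show little by themselves.

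The levels of these genes within a group did not rise and fall as a set. After subtraction of each group's mean, r over the 10 arrays was -0.08 between Cxcl12 and Cxcl16, 0.55 between Cxcl12 and Cxcr4, -0.50 between Cxcl12 and Ackr3, and 0.51 between Cxcl16 and Cxcr6. These and the following r values describe the same arrays and their shared normalization. The genes most like each member by this r were sought among 9745 genes of above-median level, so the highest values are selected from many. For Cxcl12 they were Slc20a1, a phosphate transporter (r = 0.93), Fbxl18, an F-box protein (0.93), Stard10, a lipid transfer protein (0.91), and Med12l (0.90). None of the 4 passed limma between the groups, and Slc20a1 differed by -0.00095. For Cxcl16 they were the tetraspanin Cd151 (0.95), the RNA-editing enzyme Apobec1 (0.93), the leukocyte protein Lsp1 (0.92) and Krt7, a keratin of simple duct epithelium (0.92). Of these Krt7 rose between the groups, by 1.22 ± 0.14 (SE, limma adjusted p = 0.00112). Krt7 measured 8.97, 9.18, 8.74, 8.80 and 9.16 on control arrays 1 to 5 and 10.46, 10.50, 9.87, 10.01 and 10.09 on DKO arrays 1 to 5, with DKO replicates 1 and 2 highest as for Cxcl16.

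For the receptors the nearest patterns were other genes again. Cxcr4 ran with Mxd1, a MAX-binding repressor (0.95), the transferrin receptor Tfrc (0.94), Ndufb11 of respiratory complex I (0.93) and Usp53 (0.92). Ackr3 ran with Gramd1b, a sterol transfer protein (0.97), Stx18, a syntaxin of the endoplasmic reticulum (0.97), Cr1l, a complement regulator (0.95), and the transcription factor Etv5 (0.95). Cxcr6 ran with the ion channel Piezo1 (0.91), Ttbk2 (0.90), the receptor kinase Erbb2 (0.89) and Cdca4 (0.89). Erbb2 rose by 0.38 ± 0.07 (SE, limma adjusted p = 0.0204), a call that ended without control replicate 2 (0.0589) or DKO replicate 1 (0.0518), and the other 11 did not pass. The r values of Cxcr6 rest on levels near background.

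The next comparison set the other chemokine genes beside the members. Of 33 other ligands 2 rose in DKO and none fell by limma, or 6.06%, with a median difference of 0.05 against -0.0064 over all genes tested. Over all genes 2.44% passed, the share to set beside this and the list percentages below, some of which rest on 1 or 2 genes. Without the dimmest 50% of genes the median difference was 0.0354, the nearer comparison for lists of bright genes. Cx3cl1 (fractalkine), which like Cxcl16 is made as a membrane protein on a stalk, measured 7.45, 7.58, 7.44, 7.25 and 7.44 on control arrays 1 to 5 and 8.08, 7.72, 7.73, 7.79 and 7.68 on DKO arrays 1 to 5. The groups did not overlap, and it rose by 0.37 ± 0.08 (SE, limma adjusted p = 0.0478). That p lay close to the threshold, and the call ended on leaving out any 1 of the 10 arrays. Cxcl15, a neutrophil attractant, rose by 0.35 ± 0.08 (SE, adjusted p = 0.0416), but all its levels, 4.39 to 5.03, lay in the range of unexpressed genes and its call ended on leaving out any of 9 arrays.

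The remaining 31 ligands gave no call, and several varied more between arrays of a group than between groups. Cxcl10, an interferon-induced ligand, measured 9.84 in control replicate 2 and 9.51 in DKO replicate 4, and 6.78 to 8.01 on the other 8 arrays. Cxcl13, the B cell attractant, ranged from 9.41 to 10.59 in control and from 8.75 to 10.65 in DKO, with a difference of -0.02 ± 0.38 (SE). Ccl5, made by T and NK cells, was 9.10 and 8.32 in DKO replicates 1 and 2 and 7.10 to 7.65 on the other 8 arrays. Ppbp of platelets had the most negative value of the ligands, -0.99 ± 0.67 (SE, adjusted p = 0.522).

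Of 19 other receptors none passed limma over all genes, with 1 at an unadjusted p of 0.05 and a median difference of -0.03. That 1 was Cx3cr1, the receptor of CX3CL1 on macrophages, at 7.67 ± 0.22 in control and 7.92 ± 0.10 in DKO (SD, n = 5 each), a difference of 0.25 ± 0.10 (SE, adjusted p = 0.286). The second smallest p was that of the decoy receptor Ackr2, with -0.11 ± 0.07 (SE, adjusted p = 0.472). Differences of the 19 lay between -0.18 and 0.25. Several of the 19 had group means within the range of unexpressed sex-linked genes (3.99 to 5.75), such as Ccr8 (4.81 in control, 4.75 in DKO) and Cxcr5 (5.05 and 5.03). A change in receptors that dim may not be detectable.

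**Figure D2:**
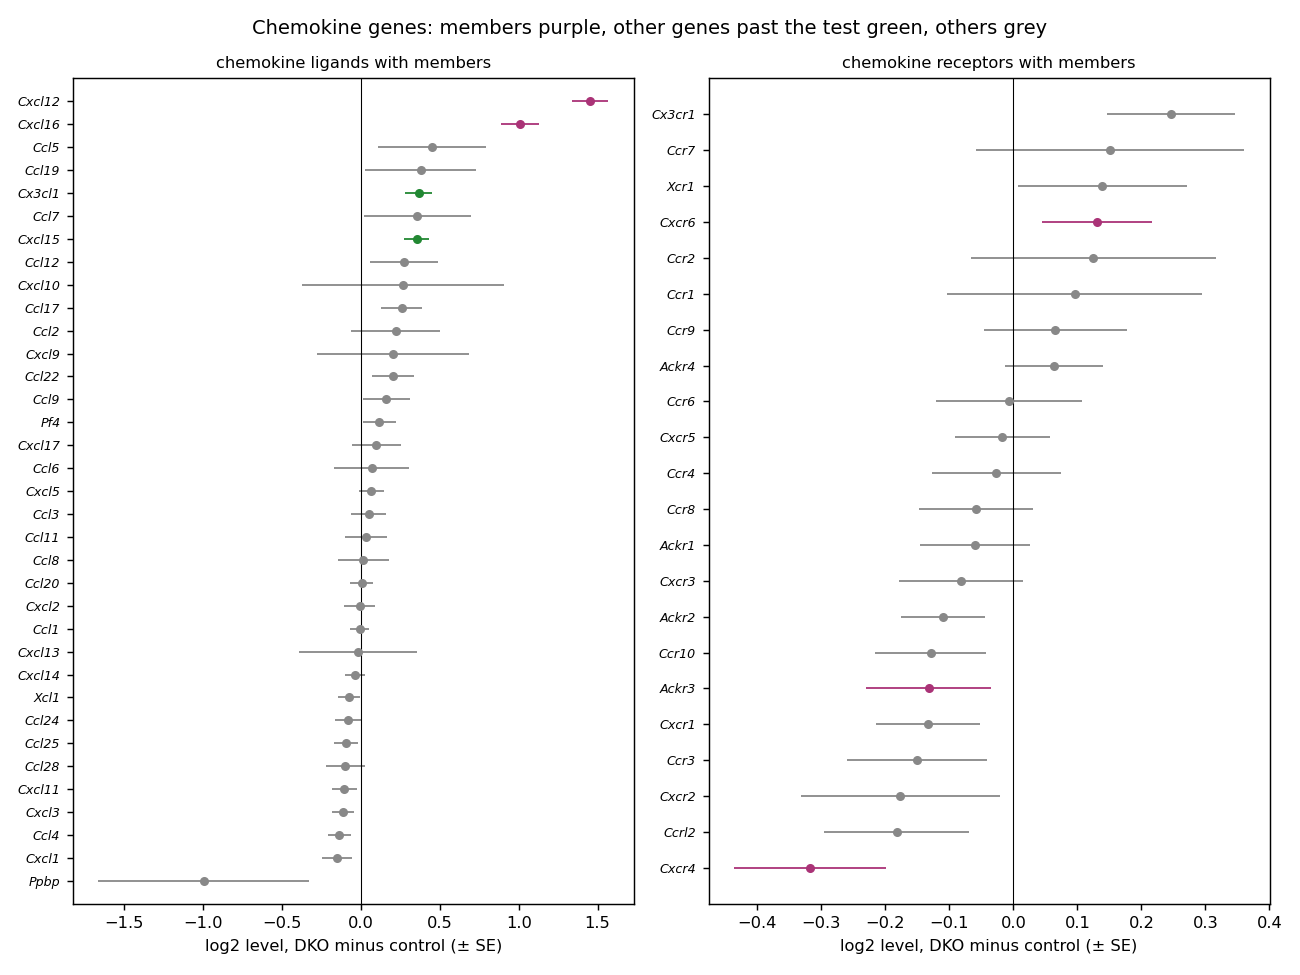
Log2 difference DKO minus control with its SE for the chemokine ligands (left) and receptors (right); members are purple, other genes past limma green and the rest grey, and the axes of the panels differ. Cxcl12 at 1.45 and Cxcl16 at 1.01 lie above all 33 other ligands, the highest of which is Ccl5 at 0.45.

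Genes that act on the ligands after synthesis came next. Of 18 genes of ligand cleavage and shedding 1 rose and none fell (5.56%, median 0.04). It was Timp3, a matrix-bound inhibitor of metalloproteinases including ADAM17, with 10.29, 10.12, 10.09, 9.96 and 10.38 on control arrays 1 to 5 and 10.79, 10.53, 10.58, 10.75 and 10.72 on DKO arrays 1 to 5. The groups did not overlap, and the difference was 0.51 ± 0.09 (SE, limma adjusted p = 0.0113). Adam10, the protease that sheds CXCL16, measured 10.45 ± 0.20 in control and 10.73 ± 0.10 in DKO (SD, n = 5 each), 0.29 ± 0.09 (SE) apart, and did not pass (adjusted p = 0.165). Adam17 differed by 0.12 ± 0.11 (SE, adjusted p = 0.636), and Dpp4, which trims the amino end of CXCL12, by -0.07 ± 0.05 (SE, adjusted p = 0.546). The neutrophil proteases Ctsg and Elane had values of -0.54 ± 0.19 and -0.55 ± 0.21 (SE) and did not pass (adjusted p = 0.197 and 0.249).

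Heparan sulfate proteoglycans and their synthesis enzymes, which hold CXCL12 at cell surfaces, had 0 of 21 measured members past limma and 8 at an unadjusted p of 0.05. Over all genes 2958 of 19938 were at that unadjusted p. The median difference was 0.12, with 17 of the 21 above 0. The median was -0.0064 over all genes and 0.0354 without the dimmest 50% of them. The smallest p-values were those of the glypicans Gpc1, with -0.26 ± 0.07 (SE, adjusted p = 0.0942), and Gpc3, with 0.29 ± 0.08 (SE, adjusted p = 0.111). Of 13 other ligands and partners of the receptors none passed, and 2 were at an unadjusted p of 0.05, with a median of 0.03. They were Cd44, a receptor of hyaluronan that forms a complex with CD74, at 0.38 ± 0.13 (SE, adjusted p = 0.21), and Hmgb1, a nuclear protein that can pair with CXCL12 outside cells, at -0.28 ± 0.12 (SE, adjusted p = 0.302).

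Below the receptors, 1 of 29 genes of coupling and migration rose and 1 fell (6.9%, median 0.08). Rgs2, a regulator that shortens G protein signals, measured 7.74, 7.38, 7.86, 7.63 and 7.46 on control arrays 1 to 5 and 8.50, 8.48, 8.07, 8.26 and 8.20 on DKO arrays 1 to 5, all above control, a difference of 0.69 ± 0.11 (SE, limma adjusted p = 0.00857). Gnai1, an inhibitory G protein subunit of the class through which chemokine receptors signal, measured 10.11, 10.24, 10.43, 9.99 and 10.18 on control arrays 1 to 5 and 9.52, 9.68, 9.66, 9.93 and 9.75 on DKO arrays 1 to 5. It fell by 0.48 ± 0.09 (SE, adjusted p = 0.0205), and its call ended without control replicate 2 (0.0596) or control replicate 5 (0.0503). Its paralogs Gnai2 and Gnai3 differed by 0.07 and 0.09 and did not pass.

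**Figure D3:**
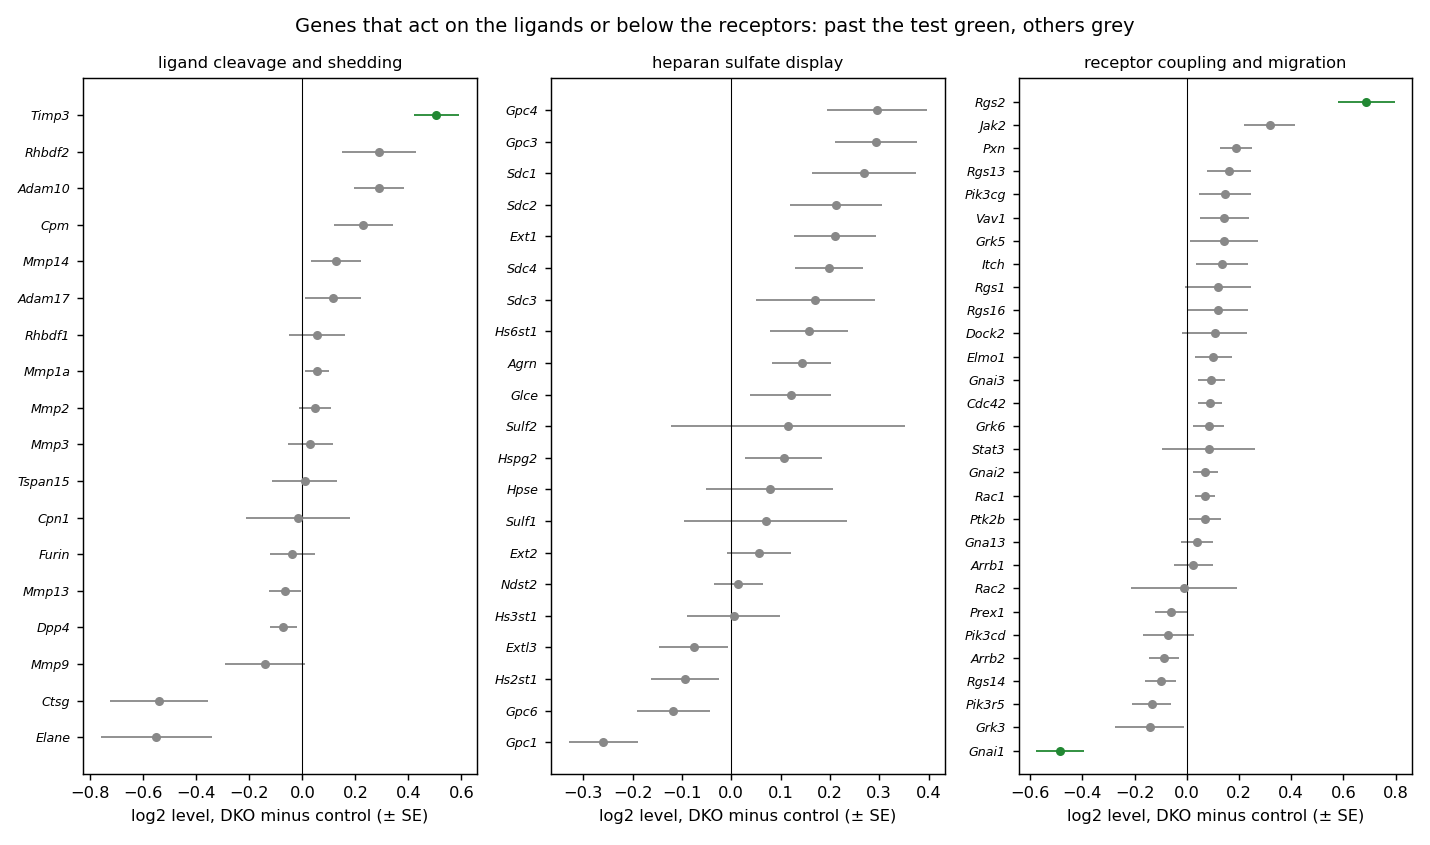
Log2 difference DKO minus control with its SE for genes of ligand cleavage and shedding, of heparan sulfate display, and of receptor coupling and migration; green marks genes past limma and grey the others, and the axes differ. Timp3 (0.51), Rgs2 (0.69) and Gnai1 (-0.48) are the 3 that passed.

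Pathways known to act on these ligands were looked at from their other target genes. Of 17 measured NF-kB response genes none passed limma and 3 were at an unadjusted p of 0.05 (median 0.08), with the smallest p for Tnip1 (0.41 ± 0.11 SE, adjusted p = 0.0901) and Nfkb2 (0.27 ± 0.08 SE, adjusted p = 0.139). Of 17 interferon response genes none passed and 1 was at an unadjusted p of 0.05 (median 0.16). The smallest p-values were those of the antiviral protein Rsad2 (0.98 ± 0.42 SE, adjusted p = 0.318) and Usp18, a protease that removes ISG15 (0.76 ± 0.44 SE, adjusted p = 0.454). The mean of the list ranged from 7.29 to 8.51 in control and from 7.29 to 8.92 in DKO. Of 15 hypoxia response genes 1 rose (6.67%, median 0.02), the carbonic anhydrase Car9, by 1.09 ± 0.18 (SE, adjusted p = 0.00962). Of 21 target genes of YAP and TAZ, which the deleted kinases restrain, 7 rose and none fell (33.3%, median 0.33). Among them Ccn1 rose by 1.43, Ajuba by 0.73, Ankrd1 by 1.51 and F3 by 0.66, each with an adjusted p of 0.00245 or less.

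The last comparison set the members beside markers of the cells that can make them. In whole tissue, more cells of a type and more RNA per cell cannot be told apart. Of 12 fibroblast and stellate cell markers none passed limma (1 at an unadjusted p of 0.05). The smallest p-values were those of Thy1 (0.31) and Pdgfra, a growth factor receptor (0.20), with a median of 0.02 and means per array of 10.03 to 10.33 in control and 10.13 to 10.27 in DKO. Of 12 endothelial markers none passed (1 at an unadjusted p of 0.05), the adhesion molecules Pecam1 (-0.14) and Cdh5 (-0.10) having the smallest p, with a median of -0.02 and means of 9.03 to 9.20 and 8.99 to 9.22. Of 10 mural cell markers none passed (2 unadjusted, Mcam at 0.27 and Cnn1 at 0.20), with a median of 0.02 and means of 8.64 to 8.83 and 8.69 to 8.84. The part of these cells in the Cxcl12 difference was not tested.

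Immune markers were set beside the members next. Of 14 macrophage and dendritic cell markers, cells that can make CXCL16, none passed and 4 were at an unadjusted p of 0.05 (median 0.08), with means of 8.10 to 8.45 in control and 8.08 to 8.40 in DKO. C1qa of complement had the smallest p, with -0.46 ± 0.11 (SE, adjusted p = 0.0556) and no overlap between the groups, followed by the mannose receptor Mrc1 with 0.33 ± 0.12 (SE, adjusted p = 0.238). In 9 of 21 alternatives 1 gene of this list passed. Of 12 T, NK and innate lymphoid markers, the cells that carry CXCR6, none passed and none was at an unadjusted p of 0.05 (median 0.06). Il7r, a cytokine receptor (0.26), and the protease Gzmb (0.10) had the smallest p, and the means per array ranged from 5.45 to 5.74 in control against 5.38 to 5.92 in DKO. Every control mean lay within the range of unexpressed sex-linked genes (3.99 to 5.75), as did the group means of Il7r and Gzmb. A change in markers that dim may not be detectable on these arrays. Of 9 B cell and lymph node markers likewise none passed at either level (median 0.01; smallest p for Fcer2a, 0.22, and Cd79a, 0.15), with means of 5.87 to 6.42 and 5.82 to 6.56.

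The means of the duct and of the acinar markers did not overlap between the groups. Of 12 measured duct markers 5 rose and none fell (41.7%, median 0.29), and the mean per array was 9.91 to 10.02 in control and 10.34 to 10.46 in DKO. Krt7 (1.22), Cldn4, a tight junction claudin (1.37), Krt19, a duct keratin (0.41), and the tetraspanin Tspan8 (0.96) rose, each with an adjusted p of 0.0248 or less. The Tspan8 call ended without control replicate 2, 3 or 5 or DKO replicate 3, 4 or 5 and with the replicate block, with an adjusted p of up to 0.0683 in these, and the Krt19 call ended without the 3 lymphocyte-rich arrays (0.134). Sox9, a transcription factor of duct cells, had a value of -0.26 ± 0.08 (SE, adjusted p = 0.149) with every DKO array below every control array, and Muc1 (-0.03), Cd24a (0.03) and Cldn7 (0.02) did not pass. The part of duct cells in the differences of Cxcl12 and Cxcl16 was not tested. Of 9 acinar markers 1 fell, Rbpjl of the acinar transcription complex (-0.45 ± 0.09 SE, adjusted p = 0.0225), with a median of -0.32 and means of 12.06 to 12.28 in control and 11.53 to 12.05 in DKO, every DKO array below every control array. The part of acinar cells was not tested. The Rbpjl call ended without control replicate 3 or 5 or DKO replicate 4. None of 11 islet (3 unadjusted, median -0.14), 9 hepatocyte (0 unadjusted) or 8 mesothelial and peripheral nerve markers (2 unadjusted, median -0.09) passed limma. The smallest p-values of the islet list were those of the hormone Iapp (-0.32, adjusted p = 0.0971) and the granule protein Chga (-0.31, adjusted p = 0.134). In the nerve list they were those of S100b (-0.21) and Cdh19 (0.21). The median of the hepatocyte markers was 1.06, with the smallest p for the plasma proteins Alb (1.33 ± 0.72 SE) and Ahsg (1.59 ± 1.17 SE), and DKO replicate 1 alone stood high.

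**Figure D4:**
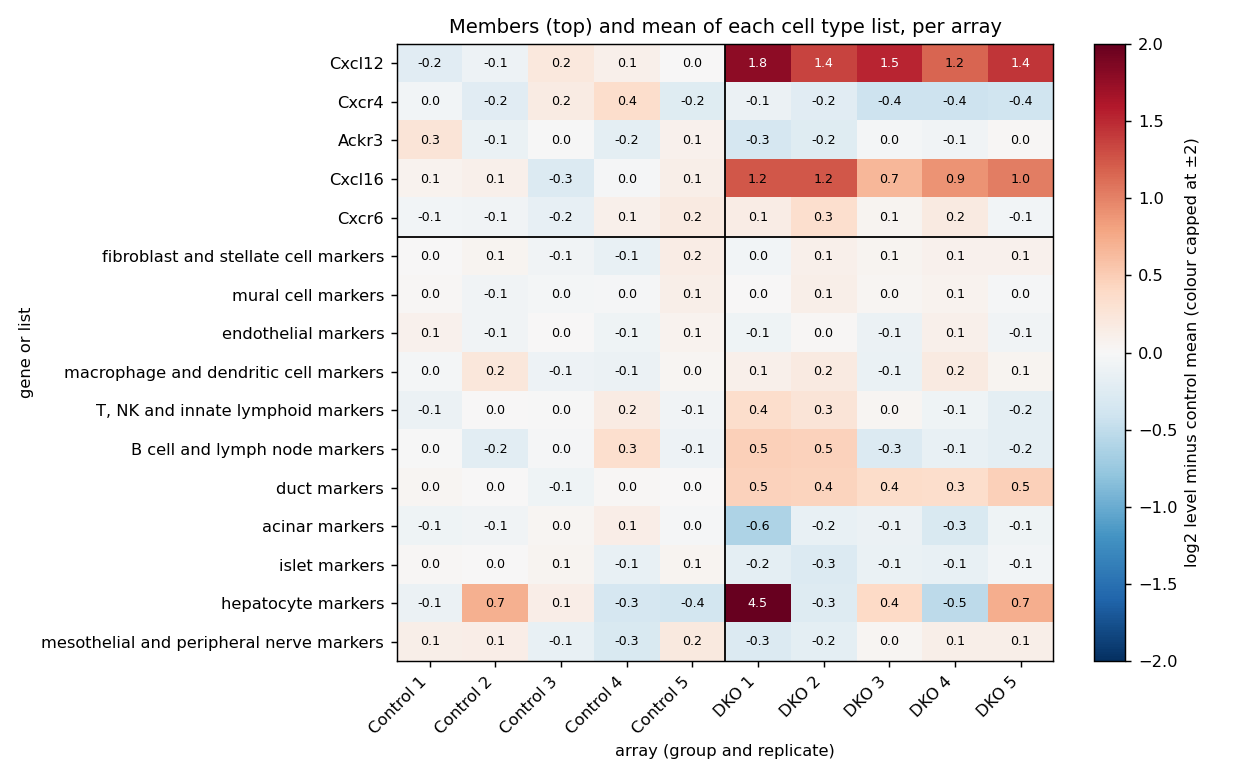
Log2 level minus the control mean on each array (columns) for the 5 members (top rows) and for the mean of each cell type list (lower rows); red is higher and blue lower. Cxcl12, Cxcl16 and the duct markers are above the control mean on all 5 DKO arrays. The acinar and islet markers are below the control mean on all 5. The fibroblast, mural, endothelial and macrophage rows vary on both sides of it, and hepatocyte markers stand out on DKO replicate 1.

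Genes beside Cxcl12 and Cxcl16 in the gene order of GRCm38.p6 did not share their differences. Beside Ackr3 (-0.13) the values were -0.16 for Asb18, -0.20 for Iqca, -0.01 for Cops8 and -0.13 for Gm9991. Beside Cxcr6 (0.13) they ran from 0.07 for Ccr9 to 0.14 for Xcr1. The small differences of these 2 receptors were thus of like size to those of most of their neighbours. Whether this likeness goes beyond the errors of the differences was not tested. Beside Cxcr4 (-0.32) the values ran from -0.10 for Lct to 0.16 for Cd55b, so its neighbours did not share its difference. Of the 20 measured neighbours, the nearest 2 on each side of each member, none passed limma (2 at an unadjusted p of 0.05), and their differences lay between -0.20 and 0.24. The highest was that of Zmynd15, whose gene model overlaps that of Cxcl16 (0.24 ± 0.13 SE, adjusted p = 0.418). The gene model of Cxcr6 overlaps that of Fyco1 (0.09 ± 0.07 SE, adjusted p = 0.553). Probes within such an overlap might measure both genes.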

How the data were processed

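Affymetrix Mouse Gene 1.0 ST arrays of pancreas RNA (5 control, 5 DKO) were processed with Affymetrix Expression Console, per the submitters' processing notes. The version, background correction and summarization method were not given in the sources used here. Log2 levels deposited by the authors, 1 per transcript cluster, already had nearly equal array medians and were used as deposited. Of 35556 clusters 21789 had 1 gene symbol, and the brightest cluster stood for each of 19938 genes. Symbols were updated through a RefSeq table (GRCm38.p6), which held the gene IDs of 21698 clusters. DKO was set against control in limma 3.58.1 under R 4.3.3 (functions lmFit and eBayes, two-sided, Benjamini-Hochberg over all genes, threshold 0.05). Errors of differences are SEs from this fit, and the number of arrays limits precision. The members and the 21 gene lists (343 genes, 321 measured) were chosen with earlier results of these data known.

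Genes named are the members, Stk4 and Stk3, up to 4 genes past the threshold in each list or else the 2 with the smallest p, all such chemokine genes, and the 4 closest patterns per member. Other names (Adam10, Adam17, Dpp4, Ctsg, Elane, Ccl5, Cxcl10, Cxcl13, Ppbp, Gnai2, Gnai3, Sox9, Muc1, Cd24a, Cldn7 and the neighbours) were added after their values were seen. On simulated data for this comparison, over 19938 genes, the fit recovered 71.6% of genes changed by 0.5 and 97% of those changed by 1 on the log2 scale. It also called 4 unchanged genes. The simulated noise was independent between genes, so differences between arrays that many genes share were not covered, and recovery on the real arrays may differ. The alternatives were other normalizations, filters on dim genes, variance models, array weights, averaged clusters, a replicate block, Xist as a covariate and arrays left out. Replicate numbers were not used as pairs in the main fit. Same-numbered arrays deviated together, at r over 0.1, in only 2 of 5 pairs. That check cannot exclude a pairing, as other differences between the arrays can hide it.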

Additional observations from a re-analysis of the deposited data

Results flagged for a closer look

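In 5 of 64 groups checked, 1 array lay far from the other 4 of its group, its gap to the nearest exceeding 0.71 of the group's range, a limit that chance passes in about 1 of 20 groups. No member was among them. Cx3cl1 was 8.08 in DKO replicate 1 and 7.68 to 7.79 in the other DKO arrays, and without that array it was 0.30 higher (limma adjusted p = 0.0583). Car9 was 6.8 in control replicate 5 and 7.33 to 7.51 in the other control arrays. The mean of the duct markers was 9.91 in control replicate 3, and that of the islet markers was 10.5 in control replicate 4. The mean of the hepatocyte markers was 11.8 in DKO replicate 1 and 6.75 to 7.99 in the other DKO arrays.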

How the results depend on the processing

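Under 21 alternatives the Cxcl12 difference stayed between 1.37 and 1.52 and that of Cxcl16 between 0.85 and 1.10, and both passed limma in each. Such calls repeat, on the same arrays, the contrast by which the genes were picked, and add no support. Cxcr4, Ackr3 and Cxcr6 kept their sign (-0.38 to -0.23, -0.18 to -0.07 and 0.08 to 0.18) and passed in none of the alternatives that kept them. A filter on the dimmest 25% of genes removed Cxcr6, and one on the dimmest 50% also Cxcr4 and Ackr3. The 487 genes past limma became 178 with the replicate block, 151 without control replicate 2 and DKO replicate 4 together, 201 without the 3 lymphocyte-rich arrays (added after seeing the data), and 260 to 433 without any 1 array, with the lowest counts without control replicate 3 (260), control replicate 2 (268) and DKO replicate 5 (303), then DKO replicates 1 (316) and 4 (324). The sum over the 21 lists became 12 with the replicate block and 8 and 9 without those arrays, and 13 to 19 without any 1 array. Of the called genes 85% were higher on the deposited values, against 72% after quantile normalization and 72.5% after subtraction of array medians. Timp3, Rgs2 and Gnai1 each lost their call without control replicate 2 and DKO replicate 4 together, as they did without the lymphocyte-rich arrays, and Rgs2 (0.0598) and Gnai1 (0.109) also with the replicate block. Car9 (0.0525), Tspan8 (0.142), Rbpjl (0.105) and Erbb2 (0.123) also lost theirs without control replicate 2 and DKO replicate 4 together, and Rbpjl (0.0552) and Erbb2 (0.0765) with the block. The 5 duct markers past limma became 3 with the block and without control replicate 2, 3 or 5 or DKO replicate 5. The cause of these shifts was not tested.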
